A study of Homo sapiens with 4 samples.

Results

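The FOS and JUN family supplies the subunits of AP-1, a dimeric transcription factor of the basic leucine zipper class. The members were chosen by symbol, as the 4 FOS-type genes FOS, FOSB, FOSL1 and FOSL2 and the 3 JUN-type genes JUN, JUNB and JUND, 7 of the 58736 features listed in each deposited table. All 7 symbols matched exactly 1 Ensembl identifier. The family was proposed with the values of this same contrast known, so the members' levels and differences are given as a description, with no test. RNA was sequenced from HEK293A, an established cell line of human embryonic kidney epithelium. Cells given the DNA probe NT1_hp2 (replicates 2 and 3) were set against cells labelled as the negative control (replicates 1 and 3), 2 libraries per group. Per the labels' protocols, cells in both groups were transiently transfected with 1 µg of plasmid for the flap-cutting nuclease FEN1, then with 500 pmol of DNA probes 48 h later, and RNA was prepared after 72 h. The sources used here name neither the target of NT1_hp2 nor the probe of the negative control. The labels do not state whether libraries of a group are separate cultures, and p-values therefore reflect a spread that may be technical.

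FOS proteins cannot form stable dimers with each other and pair with a JUN protein, whereas JUN proteins can also pair among themselves. FOS, FOSB, JUN and JUNB are textbook immediate early genes, transcribed within minutes of growth factor or stress signals through MAP kinases, and their mRNAs are short-lived. FOSL1 and FOSL2 are induced later and more durably, and JUND is expressed more steadily than the other members in many resting cells.

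The deposited values are FPKM, reads scaled to the summed exon length of a gene and to an adjusted library size. Recovered reads totalled 13647614 and 13602537 in NT1_hp2 replicates 2 and 3 and 14908687 and 12506203 in negative control replicates 1 and 3. The library sizes implied by the values were 1.035 and 1.044 times these totals in NT1_hp2. In the negative control they were 0.966 and 1.005 times the totals, so scaling to total reads is a separate setting below. Mitochondrially encoded transcripts took 4.33% and 4.29% of reads in NT1_hp2 and 6.06% and 5.92% in the negative control, and their part in the results below was not tested. Of 9 kidney epithelial markers, 5 reached 1 FPKM in every library, while the epithelial adhesion genes EPCAM and CDH1 and the renal factors PAX2 and PAX8 stayed below it. The summed level of that marker list was 151 and 155 FPKM in NT1_hp2 and 202 and 180.3 FPKM in the negative control. Endothelial markers summed to 0.432 to 0.476 FPKM and leukocyte markers to 0.299 to 0.763 FPKM, with the leukocyte genes PTPRC and CD3E listed at 0 in all 4 libraries. Fibroblast markers summed to 10.1 to 10.7 FPKM, mostly COL1A1, and neuronal markers to 51.2 to 60.8 FPKM, mostly the neurofilament gene NEFL. In bulk RNA, fewer cells expressing a gene and less of its RNA per cell cannot be told apart.

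FOS and FOSB were the 2 members that stood far apart between the groups. FOS, which encodes the prototype FOS protein, had 4.40 and 3.65 FPKM in NT1_hp2 replicates 2 and 3, against 39.5 and 25.5 FPKM in negative control replicates 1 and 3. Both NT1_hp2 libraries lay far below both control libraries, and the control libraries themselves were 1.55-fold apart. The group means were 4.02 ± 0.524 FPKM in NT1_hp2 and 32.5 ± 9.93 FPKM in the negative control (SD, n = 2 each), a ratio of 0.124. On the log2(FPKM + 1) scale the difference was -2.71 (SE 0.22), which placed FOS 5th among the decreases of 16362 tested genes. FOS (ENSG00000170345) lies on chromosome 14 at 75278774 to 75282230 on the plus strand (GRCh38, GENCODE 29).

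FOSB, a close relative of FOS that is likewise transiently induced, showed the same separation at a lower level. It had 0.599 and 0.926 FPKM in NT1_hp2, against 6.64 and 4.39 FPKM in the negative control. These values rested on 47 and 73 reads in NT1_hp2 and on 531 and 306 reads in the negative control. The 2 FOSB values within NT1_hp2 were 0.647-fold apart, replicate 2 over replicate 3, whereas all other members agreed within 1.20-fold in that group. The ratio of group means was 0.138, and the ratio of reads was 0.136 with a 95% exact binomial interval of 0.112 to 0.165 that covers counting error only. The fitted log2 difference of FOSB was only -1.87 (SE 0.21), since adding 1 to FPKM understates changes of genes at such low levels. FOSB passed the filter on low values, at least 1 FPKM in at least 2 libraries, only through the negative control. Both its NT1_hp2 values lay below 1 FPKM, so its being tested rested on the group where it was high. Its exons (chromosome 19, 45467995 to 45475179, plus strand) lie within the span of ERCC1 on the other strand but overlap no exon of another gene.

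**Figure D1:**
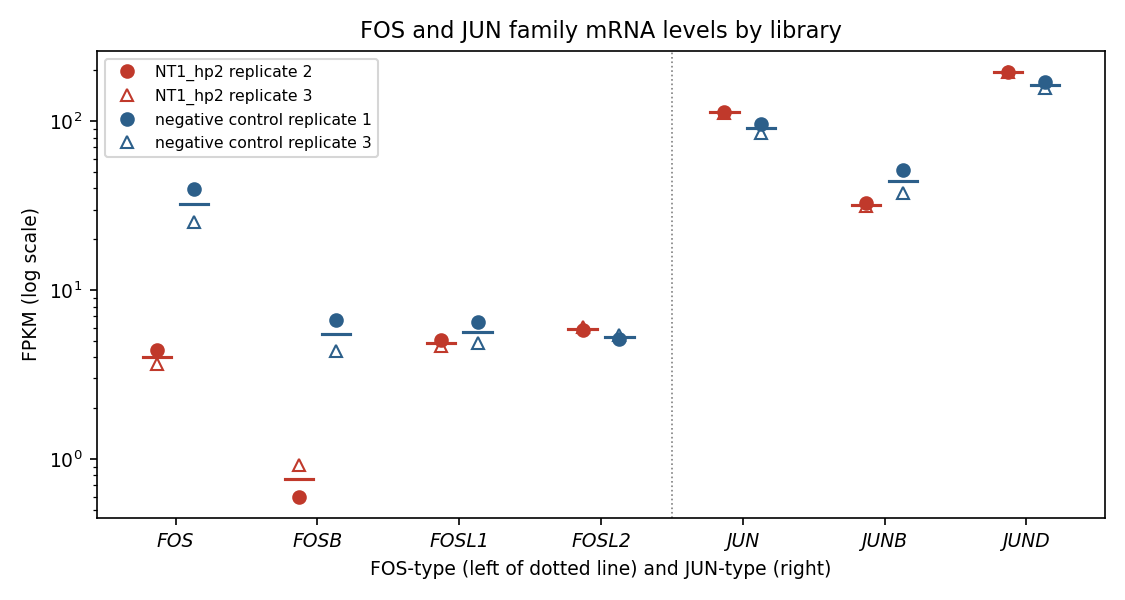
FPKM of the 7 members (log axis) in each library, with NT1_hp2 in red and the negative control in blue; short bars are group means of 2 libraries. FOS at 4.40 and 3.65 FPKM and FOSB at 0.599 and 0.926 FPKM in NT1_hp2 lie far below their control values, and FOSL1 is the 1 member whose groups overlap.

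The remaining FOS-type genes differed far less between the groups. FOSL1, which encodes FRA-1, had 5.07 and 4.67 FPKM in NT1_hp2 and 6.44 and 4.89 FPKM in the negative control. The groups overlapped, with negative control replicate 3 between the NT1_hp2 libraries. Its log2 difference was -0.18 (SE 0.13). The sign of the FOSL1 difference turned to 0.13 once per-library trends with length and GC content were removed, so no direction is given for it. FOSL2, which encodes FRA-2, had 5.79 and 6.05 FPKM in NT1_hp2 and 5.13 and 5.39 FPKM in the negative control, with both NT1_hp2 values above both control values and a log2 difference of 0.14 (SE 0.075).

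JUN and JUND had higher values in NT1_hp2 than in the negative control, by far smaller margins than those of FOS. JUN, the founding JUN protein and a target of the JNK kinases, had 114 and 112 FPKM in NT1_hp2 and 96.4 and 85.4 FPKM in the negative control. The groups did not overlap, and the log2 difference was 0.31 (SE 0.086). JUND, the most abundant member, had 196 and 195 FPKM in NT1_hp2 and 172 and 157 FPKM in the negative control, again without overlap, with a log2 difference of 0.25 (SE 0.080). Both differences grew when length and GC trends were removed, to 0.53 for JUN and 0.68 for JUND, whose longest transcript is 69.7% GC.

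JUNB, a JUN protein with weaker activating capacity, differed in the opposite direction. It had 32.7 and 31.3 FPKM in NT1_hp2 and 51.2 and 37.8 FPKM in the negative control. Both NT1_hp2 libraries were below both control libraries, but the 2 control values were 1.36-fold apart. The log2 difference was -0.45 (SE 0.15), and it shrank to -0.098 when length and GC trends were removed and to -0.23 without negative control replicate 1. Of the exons of JUNB (chromosome 19, 12791496 to 12793315, plus strand), 259 bases or 14.2% overlap exons of HOOK2 on the other strand, at 5.14 and 4.98 FPKM in NT1_hp2 and 6.33 and 7.60 FPKM in the negative control. The library kit named in the labels does not mark strand, so reads of the shared stretch cannot be assigned to either gene.

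In the fit across all genes (limma-trend, Benjamini-Hochberg adjusted p under 0.05), 2 of the 7 members, FOS and FOSB, were called lower and 0 were called higher. In the same fit 13.9% of the 16362 tested genes were called, 8.92% lower and 5.00% higher. The 2 groups did not overlap for 6 of the 7 members, 3 higher and 3 lower in NT1_hp2, as for 66.8% of all tested genes (32.0% higher, 34.8% lower). Since the family was proposed from this contrast, nothing is read from these counts. With upper-quartile scaling, scaling to total reads, limma-voom on recovered reads or removal of length and GC trends, JUN and JUND were called higher as well. In that order, those fits called 1484 of 16389, 1532 of 16397, 2361 of 16361 and 115 of 16350 genes higher. JUNB was called lower with limma-voom and among protein-coding genes alone, where JUN was also called higher, and without the filter 0 members were called. Of all genes, limma-voom called 3256 of 16361 lower. Among protein-coding genes alone 2938 of 12149 were lower and 1778 higher. Without any 1 of the 4 libraries, 0 members were called, in fits that called at most 1 gene in the whole table.

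**Figure D2:**
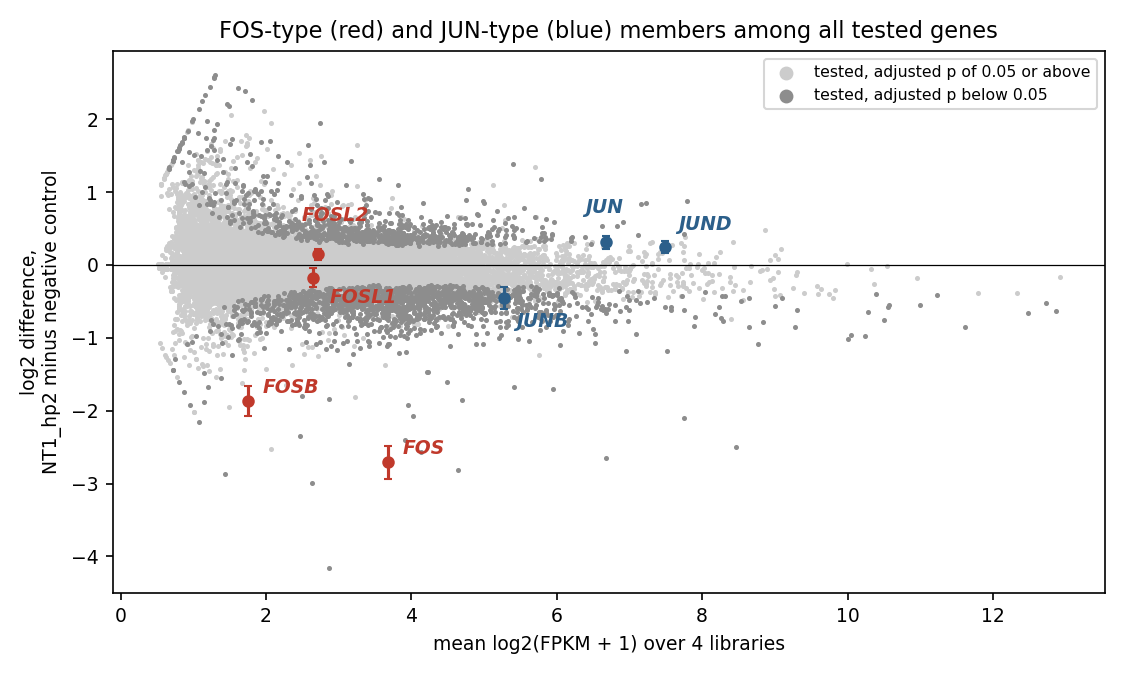
Log2 difference (NT1_hp2 minus negative control) against mean log2(FPKM + 1) for all 16362 tested genes in grey, darker where adjusted p was below 0.05, with FOS-type members in red, JUN-type in blue and bars of 1 SE. FOS at -2.71 and FOSB at -1.87 lie below the bulk of genes, while the other 5 members lie between -0.45 and 0.31.

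Summed over the 4 FOS-type genes, the level was 15.8 and 15.3 FPKM in NT1_hp2 and 57.7 and 40.1 FPKM in the negative control. Summed over the 3 JUN-type genes, it was 342 and 338 FPKM in NT1_hp2 and 319 and 280.3 FPKM in the negative control. The family total was therefore close in the 2 groups, at 356 ± 3.51 FPKM in NT1_hp2 and 349 ± 40.0 FPKM in the negative control (SD, n = 2 each), and its make-up differed. FOS-type mRNA was 4.42% and 4.33% of the family total in NT1_hp2, against 15.3% and 12.5% in the negative control. The share of FOS alone was 1.23% and 1.03% in NT1_hp2 and 10.5% and 7.95% in the negative control, and that of JUND was 54.6% and 55.2% in NT1_hp2 and 45.5% and 49.0% in the negative control.

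**Figure D3:**
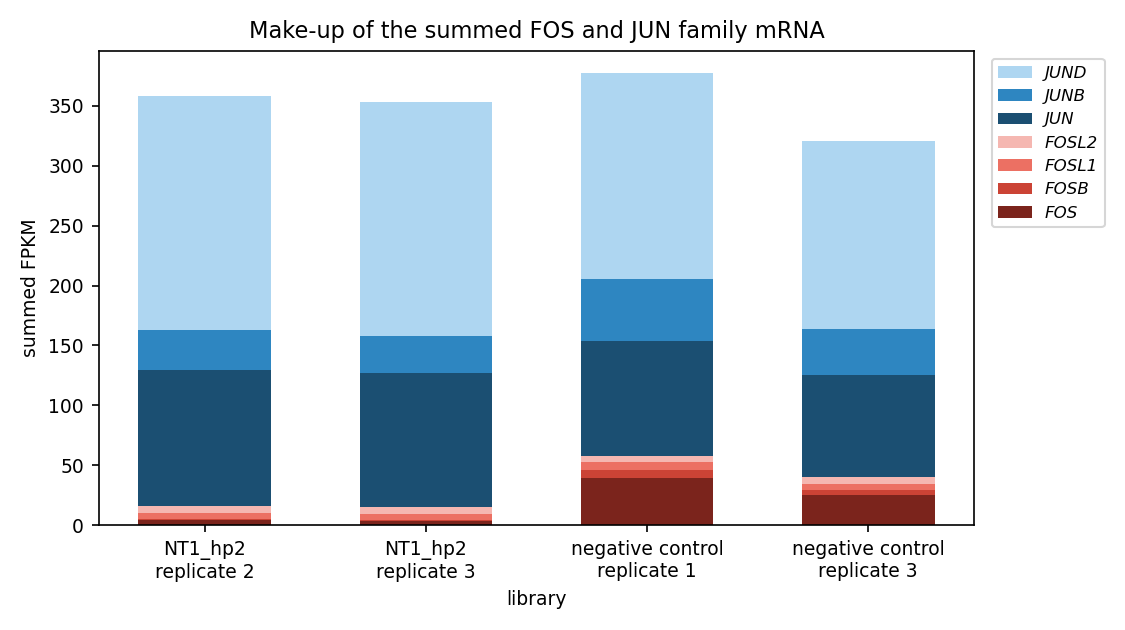
Summed FPKM of the 7 members in each library, stacked by gene, with FOS-type genes in reds at the bottom and JUN-type genes in blues above. The totals run from 320.5 to 377 FPKM, and the red part shrinks to 15.8 and 15.3 FPKM in NT1_hp2 against 57.7 and 40.1 FPKM in the negative control.

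Because the ratio of the 2 classes is taken within a library, it does not depend on how libraries were scaled. JUN-type mRNA exceeded FOS-type mRNA 21.6-fold and 22.1-fold in NT1_hp2, and 5.53-fold and 6.98-fold in the negative control. These folds and the shares above hold only for the deposited lengths. Per length of the transcript with the longest coding sequence, FOS-type sums were 19.4 and 18.6 FPKM in NT1_hp2. In the negative control they were 81.8 and 55.95 FPKM, while the JUN-type sums were unchanged in both groups. The log2 ratio of FOS-type to JUN-type levels averaged -4.45 ± 0.023 in NT1_hp2 and -2.64 ± 0.24 in the negative control (SD, n = 2 each), a difference of -1.81. With FOSL1 and FOSL2 alone in the numerator, a setting chosen after the values were seen, the difference was -0.20. An exact permutation test of 2 libraries against 2 cannot reach the threshold, so none is given.

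The order of the levels also differed between the groups. In NT1_hp2 it was JUND, JUN, JUNB, FOSL2, FOSL1, FOS and FOSB, with no overlap between neighbours. In the negative control it was JUND, JUN, JUNB, FOS, FOSL1, FOSB and FOSL2, where JUNB overlapped FOS, FOSL1 overlapped FOSB and FOSB overlapped FOSL2. With the deposited lengths FOS thus ranked 6th of the 7 in NT1_hp2 and 4th in the negative control. The deposited FPKM divide by the summed length of all annotated exons, 3238 bases for FOS, whose transcript with the longest coding sequence has 2158. Per length of that transcript, FOS was at 6.60 and 5.48 FPKM in NT1_hp2 and 59.3 and 38.2 FPKM in the negative control, so that its mean in the control lay above that of JUNB, at 51.2 and 37.8 FPKM. On that scale FOS in NT1_hp2 overlapped both FOSL1, at 5.73 and 5.28 FPKM, and FOSL2, at 6.18 and 6.46 FPKM, so its rank of 6th there holds only for the deposited lengths. FOSB in the negative control was then at 9.77 and 6.45 FPKM, against 7.28 and 5.53 FPKM for FOSL1 and 5.48 and 5.75 FPKM for FOSL2. The order of FOSL1 before FOSB in the control thus also holds only for the deposited lengths.

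The members also varied between the 2 negative control libraries. FOS, FOSB, JUNB and FOSL1 were 1.55-fold, 1.51-fold, 1.36-fold and 1.32-fold higher in replicate 1 than in replicate 3. On the log2(FPKM + 1) scale these were 0.61, 0.50, 0.43 and 0.34, where the median absolute difference over all tested genes was 0.13. Each of these gaps was more than the median gene showed. JUN, JUND and FOSL2 were closer, at 0.17, 0.13 and -0.060. Within NT1_hp2, FOSB and FOS were 0.27 and 0.21 apart, and the other 5 members by at most 0.098.

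Gene structure divides the 2 classes. JUN, JUNB and JUND are single-exon genes, as are 4.74% of the 19140 protein-coding genes with an annotated 3' UTR, and each FOS-type gene has 4 exons in its transcript with the longest coding sequence. The pentamer ATTTA, the core of the AU-rich elements through which short-lived mRNAs are degraded, occurs 5 times in the 3' UTR of FOS, 3 times in FOSB, 1 time in FOSL1 and 9 times in FOSL2. In the JUN-type genes it occurs 3 times in JUN, 2 times in JUNB and 1 time in JUND. The median over protein-coding genes is 1, and 23.8% of them have at least 5, 35.5% at least 3 and 11.7% at least 9. The counts are not scaled to the length of the 3' UTR, which is 806 bases in FOS, 2166 in FOSB and 4864 in FOSL2.

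The promoters of FOS and FOSB are shown because these 2 genes had the large decreases, with that of JUND, the most abundant member, beside them. Each line holds the 100 bases before the RefSeq start site (RefSeq, GRCh38.p14), and capitals mark the cyclic AMP response element core TGACGT, on either strand, and the TATA motif TATAAA. The windows are chr14:75278728-75278827 on the plus strand for FOS, chr19:45467896-45467995 on the plus strand for FOSB and chr19:18281623-18281722 on the minus strand for JUND. GENCODE 29 places the first annotated base of FOS 54 bases upstream of that RefSeq start. For JUN and FOSL2 it lies 280 and 410 bases upstream, while for FOSB, JUNB and JUND both starts nearly coincide. Motif positions are counted from the RefSeq start, so the windows searched in JUN and FOSL2 lie downstream of their GENCODE starts.
FOS: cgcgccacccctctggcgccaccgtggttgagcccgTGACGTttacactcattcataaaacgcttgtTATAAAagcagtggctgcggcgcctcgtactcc
FOSB: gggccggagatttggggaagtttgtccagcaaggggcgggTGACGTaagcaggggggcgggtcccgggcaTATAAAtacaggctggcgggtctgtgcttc
JUND: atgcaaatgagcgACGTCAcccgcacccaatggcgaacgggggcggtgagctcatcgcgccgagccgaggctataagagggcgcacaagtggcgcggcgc

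FOS and FOSB hold the 2 motifs at nearly the same places, TGACGT from -64 to -59 in FOS and from -60 to -55 in FOSB, and TATAAA from -33 to -28 and from -30 to -25. The same core lies in the 100-base windows of FOSL2 (-66 to -61) and JUND (-87 to -82, on the other strand), so 4 of the 6 members in the promoter table hold it, as do 4.43% of 27305 promoters. TATAAA is in FOS, FOSB and JUNB and in 5.34% of promoters. JUN holds TGACATCA, known as the site through which JUN protein acts on its own promoter, from -67 to -60, as do 1.66% of promoters in that window. The consensus AP-1 site TGACTCA, searched on both strands, is in none of these 6 windows up to 250 bases upstream and in 4.16% of promoters of that length. The CArG box bound by serum response factor was also in none of them within 250 bases (1.14% of promoters), and these letters say nothing of sites farther away.

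Among other dimer partners of FOS and JUN proteins, ATF3 and DDIT3 mRNA rose. This list and those below were chosen with earlier results of these data known. Their counts, shares and adjusted p-values are therefore a description and no evidence of enrichment. Of 17 tested partners 4 rose and 1 fell, which is 23.5% and 5.88% of the list against 5.00% and 8.92% of all tested genes, and the median log2 difference was 0.073 against -0.0075. After removal of length and GC trends 3 were higher and 0 lower, against 115 and 181 of all 16350 tested genes. With limma-voom 6 were higher and 4 lower, against 2361 and 3256 of all 16361. The stress factor ATF3 had 70.7 and 63.9 FPKM in NT1_hp2 and 24.6 and 25.8 FPKM in the negative control, 1.38 higher on the log2 scale (SE 0.078, adjusted p = 0.034 in limma-trend). DDIT3, whose product CHOP forms dimers with other basic leucine zipper proteins, averaged 81.5 ± 0.461 FPKM in NT1_hp2 and 35.5 ± 1.48 FPKM in the negative control, with 27.2% of its exon bases shared with MARS on the other strand. CREB5, a partner of JUN, averaged 7.82 ± 0.257 FPKM in NT1_hp2 and 3.53 ± 0.106 FPKM in the negative control. ATF3 was above FOS in both NT1_hp2 libraries, below FOS in negative control replicate 1 and near-equal to it in replicate 3.

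Among 22 other immediate early genes, 5 fell and 2 rose, with a median log2 difference of -0.13, and 22.7% of the list was lower and 9.09% higher, against 8.92% and 5.00% of all tested genes. After removal of length and GC trends 2 were lower and 2 higher (181 and 115 of all 16350 tested genes). With limma-voom 8 were lower and 4 higher (3256 and 2361 of all 16361). EGR1, a zinc finger factor induced alongside FOS, had 6.39 and 5.99 FPKM in NT1_hp2 and 50.3 and 34.5 FPKM in the negative control, or -2.57 on the log2 scale (SE 0.19, adjusted p = 0.034 in limma-trend). The decrease of IER5 was smaller, to 29.8 ± 0.700 FPKM in NT1_hp2 against 51.6 ± 6.23 FPKM in the negative control. CYR61, BTG2 and IER2 were the others that fell, with log2 differences of -0.67, -0.48 and -0.60, and 30.8% of the exon bases of IER2 are shared with AC011446.2 on the other strand. KLF6 rose to 11.9 ± 0.565 FPKM in NT1_hp2 against 7.46 ± 0.0769 FPKM in the negative control, and KLF10 also rose (0.51). DUSP1, a phosphatase of MAP kinases induced with FOS, was at 69.8 and 62.7 FPKM in NT1_hp2 and at 74.5 and 66.9 FPKM in the negative control, and did not pass (-0.093, SE 0.093).

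By profile over the 4 libraries, the gene nearest to FOS was EGR1. Among 7779 protein-coding genes with a mean of at least 5 FPKM, likeness was measured as the Euclidean distance between centred log2(FPKM + 1) profiles over 4 libraries. EGR1 lay at 0.179 from FOS, followed by MT-ATP8 at 0.867, OST4 at 1.14, POLR2L at 1.33 and MRPL23 at 1.53. Their log2 differences, in the same order, were -2.57, -1.92, -1.61, -1.47 and -1.22. The distance thus largely followed the group difference, with which the family was chosen, and adds no separate evidence. Short or overlapping exons limit some of these values, since MT-ATP8 shares 22.2% of its bases with MT-ATP6, OST4 21.0% with AGBL5 and POLR2L 22.5% with CD151. JUN, whose log2 difference was 0.31, had closer neighbours, where only 2.38% of all tested genes differed by at least 2-fold. The nearest were THUMPD2 at 0.0214, NCAPG at 0.0273, CAMTA1 at 0.0296, EIF1 at 0.0359 and LSM12 at 0.0371. All had log2 differences between 0.30 and 0.33, and NCAPG shares 33.1% of its exon bases with LCORL on the other strand.

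**Figure D4:**
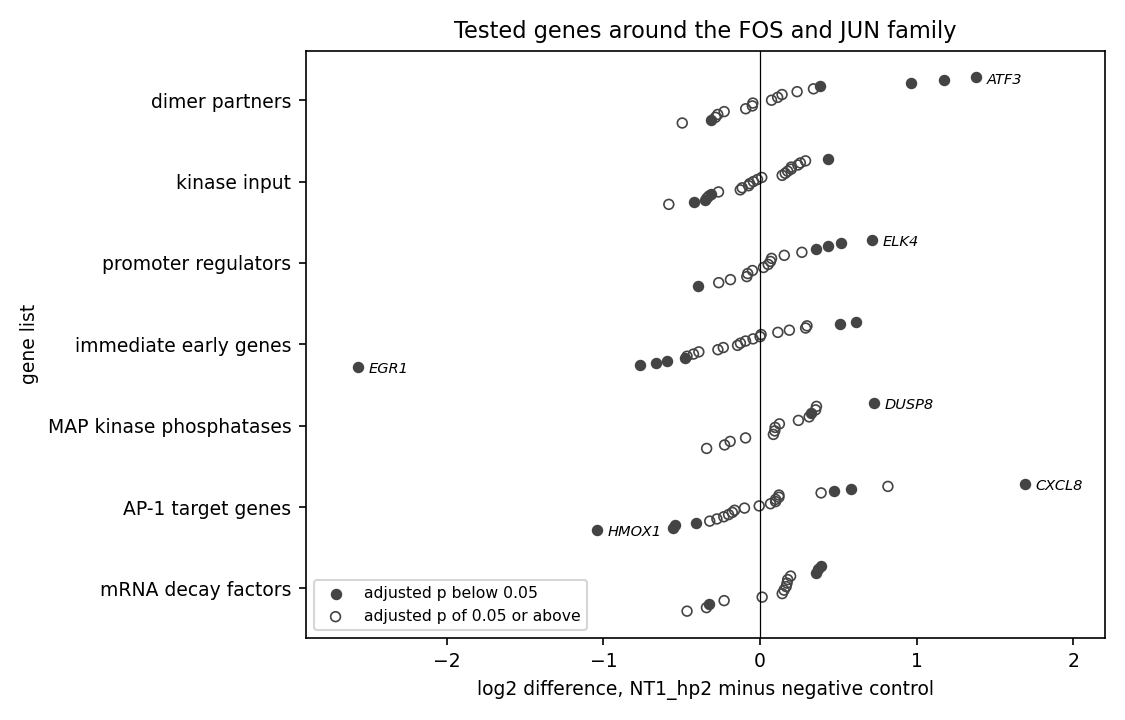
Log2 difference (NT1_hp2 minus negative control) of each tested gene in 7 lists around the FOS and JUN family, 1 point per gene, filled where the limma-trend adjusted p was below 0.05. EGR1 at -2.57 stands alone on the left, and CXCL8 at 1.69 and ATF3 at 1.38 are farthest to the right.

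Upstream of the family, 16 regulators of immediate early promoters were tested, binding factors and their coactivators. Of these 4 rose and 1 fell (25% and 6.25%, against 5.00% and 8.92% of all tested genes), with a median of 0.059. After removal of length and GC trends the counts were 0 higher and 0 lower, against 115 and 181 of all 16350 tested genes. The Ets factor ELK4, which acts with serum response factor at the FOS promoter, rose to 7.63 ± 0.0744 FPKM in NT1_hp2 against 4.27 ± 0.225 FPKM in the negative control. MEF2A (0.52), CREM (0.36) and MRTFB (0.44) rose, and SRF, the serum response factor itself, fell to 9.76 ± 0.13 FPKM in NT1_hp2 against 13.2 ± 1.00 FPKM in the negative control (-0.40, limma-trend adjusted p = 0.041).

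Of 23 MAP kinase cascade genes 1 rose and 3 fell (4.35% and 13.04%, against 5.00% and 8.92% of all tested genes; median -0.043). The balance followed the scaling, with 4 higher and 2 lower under upper-quartile scaling and 3 and 2 under scaling to total reads. All tested genes there gave 1484 and 1428 of 16389, and 1532 and 1327 of 16397. Counts were 0 and 0 after removal of length and GC trends (115 and 181 of all 16350). With limma-voom they were 4 and 7 (2361 and 3256 of all 16361). MAPK9, which encodes the JUN kinase JNK2, rose to 15.1 ± 0.586 FPKM in NT1_hp2 against 10.95 ± 0.427 FPKM in the negative control. MAPK3, which encodes ERK1, fell to 22.3 ± 0.543 FPKM in NT1_hp2 against 30.3 ± 3.06 FPKM in the negative control, and MAPK12 and RPS6KA1 fell by 0.35 and 0.32 on the log2 scale. MAPK12 shares 29.3% of its exon bases with HDAC10 on the same strand, which makes its level uncertain. Among 14 phosphatases and Sprouty-type feedback inhibitors of MAP kinases 2 rose and 0 fell (14.3% and 0%, against 5.00% and 8.92% of all tested genes; median 0.11), DUSP8 by 0.73 and SPRED2 by 0.32 on the log2 scale. Among protein-coding genes alone 5 were higher and 1 lower, against 1778 and 2938 of all 12149. The counts after removal of length and GC trends were 1 and 0, against 115 and 181 of all 16350.

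Genes long described as AP-1 targets went both ways, with 3 of 22 higher and 4 lower (13.6% and 18.2%, against 5.00% and 8.92% of all tested genes; median -0.053). After removal of length and GC trends 2 were higher and 1 lower (115 and 181 of all 16350 tested genes). With limma-voom 4 were higher and 7 lower (2361 and 3256 of all 16361). The chemokine gene CXCL8 had 6.13 and 5.64 FPKM in NT1_hp2 and 1.04 and 1.23 FPKM in the negative control, and LOX (0.58) and HBEGF (0.47) rose as well. HMOX1, heme oxygenase, averaged 5.68 ± 0.789 FPKM in NT1_hp2 and 12.7 ± 1.41 FPKM in the negative control, and MMP14 (-0.54), LMNA (-0.56) and KRT18 (-0.41) also fell. Of the exon bases of KRT18, 16.3% are shared with KRT8 on the other strand. KRT8 was at 84.2 and 86.6 FPKM in NT1_hp2 and at 112 and 99.0 FPKM in the negative control.

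Of 14 factors that bind AU-rich or other decay elements or shorten poly(A) tails, 3 rose and 1 fell (21.4% and 7.14%, against 5.00% and 8.92% of all tested genes; median 0.16). The counts were 0 and 0 after removal of length and GC trends (115 and 181 of all 16350 tested genes). With limma-voom 4 were higher and 4 lower (2361 and 3256 of all 16361). Among protein-coding genes alone 3 were higher and 4 lower (1778 and 2938 of all 12149). TIAL1 (0.36), CNOT1 (0.39) and AGO2 (0.37) rose and ZFP36L2 (-0.33) fell, while ZFP36, a decay factor of FOS-like mRNAs, was at 5.64 and 4.56 FPKM in NT1_hp2 and at 7.88 and 6.93 FPKM in the negative control without passing.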

How the data were processed

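The authors deposited 1 value per gene and library, taken here as FPKM because each value times the summed GENCODE 29 exon length was a whole multiple of 1 step per library (100% of values above 0, tolerance 0.01). The build is GRCh38.p12 per the submitters' processing notes, while the sources used here name no aligner, counter or normalization. Each table listed 58736 features, 1 of them (EGFP) without a GENCODE entry. No 2 libraries were identical (0 pairs), and the recovered reads of a pair gave a chi-square per degree of freedom of 2.97 within NT1_hp2 and 6.83 within the negative control, so each counted as 1 replicate. At 1 kilobase, 3 reads correspond to 0.208 to 0.239 FPKM.

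Genes reaching 1 FPKM in 2 or more libraries were transformed as log2(FPKM + 1) and compared with limma 3.58.1 (trend, robust) in R 4.3.3, adjusting over all tested genes. The fit was also run on simulated reads in which all genes had the same dispersion, unlike real data, and no result above rests on that run. Trends with length and GC content were removed with mgcv 1.9.3. limma-voom used recovered reads and the library sizes implied by the deposited values. The members and gene lists were chosen with earlier results of these data known. Named genes are the 7 members, up to 3 passing genes of each list with the smallest p-value, and the 5 nearest profiles of FOS and of JUN. DUSP1, ZFP36, HOOK2 and further passing list genes were named after their values were seen. Some results of the gene lists are not reported here. Promoters were taken from RefSeq for 6 of 7 members.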

Additional observations from a re-analysis of the deposited data

How the results depend on the processing

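The number of genes called was 2278 (818 higher, 1460 lower) as deposited. It was 5617 with limma-voom, 4716 among protein-coding genes alone, 131 without the filter on low values and 296 after removal of length and GC trends, and it ran from 0 to 1 when 1 library was left out, where 3315 to 5836 genes had an unadjusted p under 0.05. The cause was not tested. The share of calls that were higher was 35.9% as deposited, 51.0% with upper-quartile scaling (1484 higher, 1428 lower) and 53.6% with scaling to total reads (1532 higher, 1327 lower). It was 100% without the filter, where all 131 calls were higher and FOS and FOSB were not called.

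FOS stayed between -3.02 and -2.40 and FOSB between -2.86 and -1.62 on the log2 scale under all 13 alternatives. FOSB reached -2.86 with limma-voom and -2.70 with a pseudocount of 0.1. FOSL2, JUN, JUNB and JUND kept their sign under all 13, and FOSL1 under 12. Among the 13, dropping the robust option, the filter or the non-coding genes cannot change a member's log2 difference, so these settings add no support. The log2 difference of the FOS-type to JUN-type ratio, -1.81, was -1.27 as a difference of class medians, -0.20 with FOSL1 and FOSL2 alone, -1.97 after removal of length and GC trends, -1.62 from summed reads and -2.02 per length of 1 transcript, and it ran from -1.98 to -1.65 with 1 library left out. FOSL1 and FOSL2 alone and the transcript length were chosen after seeing the data. Immediate early genes called lower numbered 5 as deposited and 0 to 9 under the other settings with all libraries, and dimer partners called higher numbered 4 and 0 to 6. With 1 library left out, 0 genes of any list were called in either direction. No paired analysis was possible because the groups share only replicate number 3.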
